A study of Mus musculus with 12 samples.

Results

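Kruppel-like factors (KLFs) are transcription factors that bind GC-rich and CACCC-type DNA through zinc fingers at the end of the protein. The 10 KLF genes described here are Klf2, Klf3, Klf4, Klf6, Klf7, Klf9, Klf10, Klf11, Klf13 and Klf16, chosen by gene name, and all 10 were found among the 14264 genes of the deposited tables. The 2 other genes of that name in the tables, Klf5 and Klf8, are given further on as relatives. The cells were mouse bone marrow-derived macrophages carrying a short hairpin against MOF, the lysine acetyltransferase encoded by Kat8, or a control hairpin. The 4 groups of 3 libraries were shMOF after 3 h of lipopolysaccharide (LPS, 100 ng/ml), shCTRL with the same LPS, shMOF unstimulated and shCTRL unstimulated. All groups thus carry a hairpin, and the labels name 1 kind against MOF, so that other effects of that hairpin and loss of MOF cannot be told apart. The study asks how MOF shapes macrophage activation by LPS, and the values below describe which KLF transcripts differed with the knockdown in each state.

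KLF proteins fall into classes by the partners of their variable front parts. KLF2, KLF4, KLF6 and KLF7 belong to a class that mostly activates genes and can recruit acetyltransferases such as p300, CBP and PCAF. KLF3 represses genes through the corepressor CtBP, and KLF9, KLF10, KLF11, KLF13 and KLF16 can repress through the corepressor Sin3. In macrophages KLF2 is known to restrain inflammatory activation, KLF4 to favour monocyte differentiation and alternative activation, and KLF6 to favour inflammatory gene expression.

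Promoters of 4 members are shown first, since these genes carry the clearest changes of the knockdown effect with LPS. Each window runs from 250 bases before to 50 bases after the RefSeq start (GRCm38.p6, the assembly of mm10), on the strand of the gene. Capitals mark CCAAT on either strand in Klf6, Klf9 and Klf13, and a match to the MEF2 site in Klf2. MEF2 factors act downstream of the kinases MEK5 and ERK5 and are known activators of Klf2 and Klf4.
Klf2 (chr8:72318812-72319111, plus strand): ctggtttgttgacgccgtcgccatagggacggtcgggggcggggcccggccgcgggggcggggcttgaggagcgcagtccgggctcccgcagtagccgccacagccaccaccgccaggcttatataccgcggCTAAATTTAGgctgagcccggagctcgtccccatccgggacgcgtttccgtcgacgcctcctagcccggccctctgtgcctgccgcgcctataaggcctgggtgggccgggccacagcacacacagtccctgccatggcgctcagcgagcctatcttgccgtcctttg
Klf6 (chr13:5861239-5861538, plus strand): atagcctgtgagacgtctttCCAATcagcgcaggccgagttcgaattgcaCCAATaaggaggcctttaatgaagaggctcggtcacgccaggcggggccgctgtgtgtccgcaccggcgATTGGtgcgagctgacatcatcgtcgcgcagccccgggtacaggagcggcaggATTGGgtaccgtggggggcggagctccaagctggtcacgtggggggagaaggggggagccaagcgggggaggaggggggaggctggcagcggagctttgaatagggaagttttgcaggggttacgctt
Klf9 (chr19:23140976-23141275, plus strand): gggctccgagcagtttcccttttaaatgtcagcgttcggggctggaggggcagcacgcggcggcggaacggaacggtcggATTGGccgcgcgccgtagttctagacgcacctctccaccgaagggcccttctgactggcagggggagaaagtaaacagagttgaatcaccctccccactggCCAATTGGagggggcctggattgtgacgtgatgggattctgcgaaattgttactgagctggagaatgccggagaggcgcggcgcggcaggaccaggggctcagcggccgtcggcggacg
Klf13 (chr7:63938866-63939165, minus strand): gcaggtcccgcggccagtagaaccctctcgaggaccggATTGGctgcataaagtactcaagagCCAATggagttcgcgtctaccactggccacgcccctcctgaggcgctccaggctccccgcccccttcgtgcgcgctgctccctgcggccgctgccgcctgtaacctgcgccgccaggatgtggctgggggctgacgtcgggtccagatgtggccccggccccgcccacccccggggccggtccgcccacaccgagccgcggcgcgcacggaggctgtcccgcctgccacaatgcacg

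Windows were found for 8 of the 10 members, and all 8 were GC-rich, with 58.3% to 77.7% G and C against a median of 52.7% over 32851 windows. GGGCGG, the GC box that SP and KLF proteins can bind, lay on either strand in 7 of the 8, and in 35.7% of all windows. CACCC was in 5 of 8 members and 57.5% of all windows. The MEF2 site was in Klf2 alone of the 8, at bases -118 to -109 from the start, and in 3.19% of all windows. CCAAT, the letters that NF-Y binds, was in 4 of 8 members and 37.4% of all windows: in Klf6 at 4 places, in Klf9 at 3 places of which a pair overlap, and in Klf11 and Klf13 at 2 places each. TATAAA, TGACGTCA (CRE), TGACTCA (AP-1), the CArG box, the NF-kB site and the glucocorticoid response element had no match in these 8 windows, against shares of all windows from 0.0792% for the glucocorticoid element to 13.6% for TATAAA. These matches describe letters only.

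The members differed widely in level. The authors' deposited tables give 1 mean normalized count per gene, with the set of libraries not stated, so a level per group or per library cannot be shown here and neither can the LPS response of control cells. Per kb of exon, Klf6 stood at 4049 normalized counts, at percentile 97.5 of all genes with a length. Klf13 followed at 368, Klf3 at 263, Klf16 at 252, Klf10 at 209, Klf7 at 206 and Klf2 at 154 normalized counts per kb. Klf4 at 90.5, Klf11 at 27.0 and Klf9 at 18.6 normalized counts per kb lay below the median of all genes, 105. Without values per library the order of neighbours such as Klf10 and Klf7 has no error. Klf9 and Klf11 had the lowest mean counts of the 10, 89.6 and 117 normalized counts, against 17779 for Klf6.

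**Figure D1:**
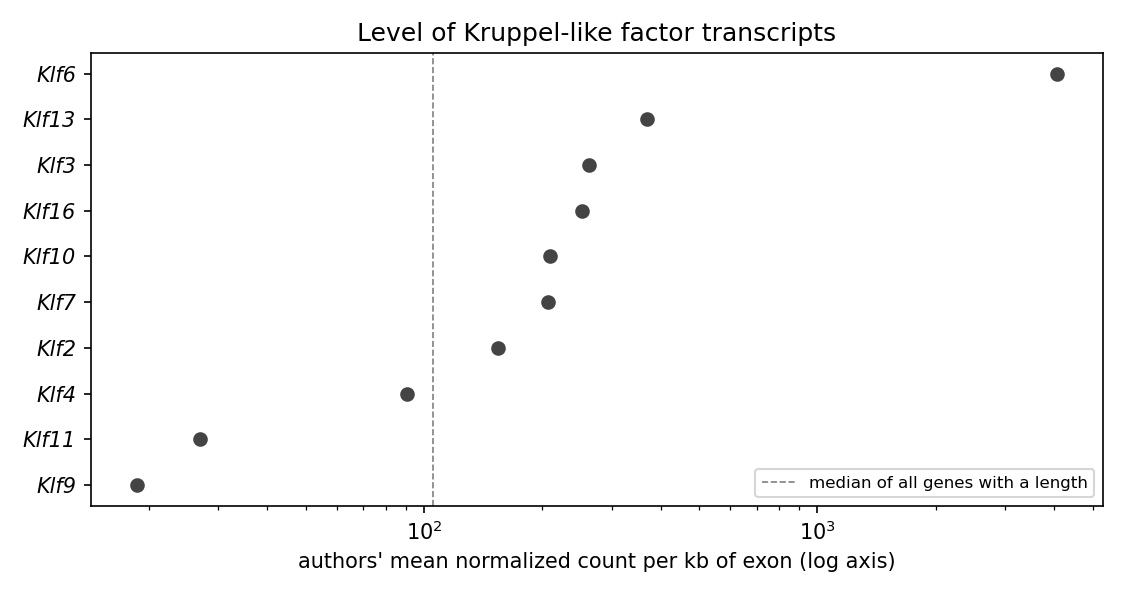
Authors' mean normalized count per kb of merged exons for each Kruppel-like factor gene, on a log axis, with 1 point per gene and no error since the tables hold no values per library. Klf6 at 4049 stands far above the other 9 genes, and 3 genes lie left of the dashed median of all genes at 105.

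The gene that the hairpin targets was lower in knockdown cells in both states. By the authors' deposited tables Kat8 had a log2 fold change (shMOF over shCTRL, called the log2 effect below) of -2.31 (SE 0.13) at LPS 3 h and -2.25 (SE 0.10) unstimulated. All 6 macrophage markers were measured, with mean normalized counts summing to 218605. Those of T cells (Cd4 of 3 markers), neutrophils (S100a8 of 4), dendritic cells (Zbtb46 of 3), fibroblasts (3 of 3), endothelium (3 of 3) and progenitors (3 of 3) summed to 21.0 to 1054 each. No B cell marker was analysed. Most of the progenitor sum came from Ly6a, with a mean of 998, while Kit and Cd34 had low means of 14.9 and 40.5. By the authors' deposited tables the macrophage markers rose in 4 of 6 cases at LPS 3 h and in 6 of 6 unstimulated. The progenitor markers fell in 2 of 3 cases at LPS 3 h and in 3 of 3 unstimulated. The fibroblast markers rose in 2 of 3 cases in each state, and Zbtb46 and Kdr rose at LPS 3 h. Over all genes tested, 28.1% were higher and 20.0% lower at LPS 3 h, and 21.3% and 17.8% unstimulated. The part of these marker shifts in the KLF results was not tested, and in bulk RNA fewer cells of a type and less RNA per cell cannot be told apart. Separate animals or cultures are not named in the labels, and p-values therefore measure the spread between these samples alone, which may be technical.

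At LPS 3 h, 6 of the 10 KLF genes rose in knockdown cells, 1 fell and 3 did not pass the authors' adjusted p of 0.05. Unstimulated, 4 rose, 4 fell and 2 did not pass. Over all genes tested 48.0% passed at LPS 3 h, with 28.1% higher and 20.0% lower, and 39.1% unstimulated, with 21.3% higher and 17.8% lower. The median log2 fold change of the 10 was 0.40 at LPS 3 h and -0.05 unstimulated, beside 0.03 in each state over all genes averaging 10 normalized counts or more. The widest change was 1.60-fold, for Klf7 at LPS 3 h. Every one of these calls ended under an empirical null that sets each gene against the central spread of all genes' deposited Wald statistics. There 0 members passed in either state, and 4 at LPS 3 h and 2 unstimulated had an unadjusted p under 0.05. That central spread may hold knockdown effects on many genes as well as error, and these cannot be told apart here.

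**Figure D2:**
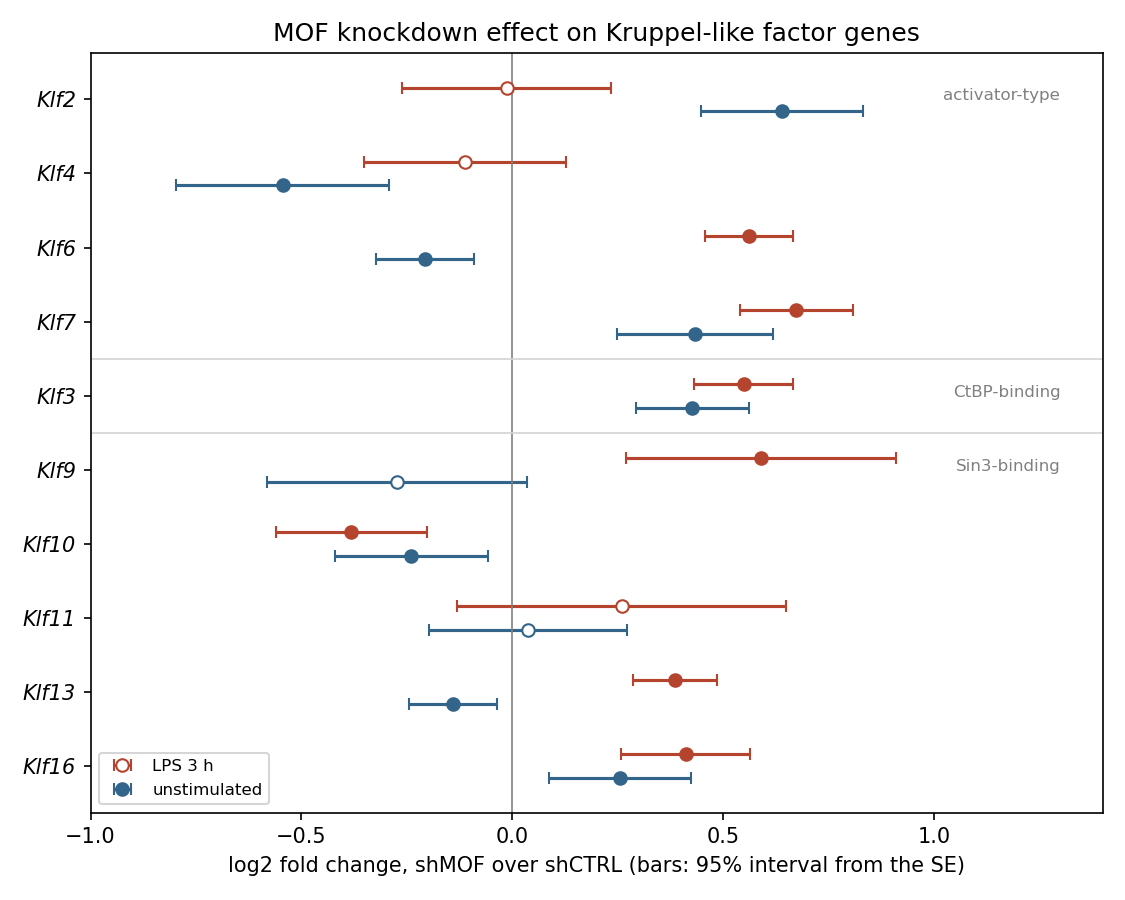
Log2 fold change of shMOF over shCTRL for each Kruppel-like factor gene at LPS 3 h (red, upper point) and unstimulated (blue, lower point), from the authors' deposited tables, with 95% intervals from the SE; filled points passed an adjusted p of 0.05. Klf6 and Klf13 are filled on opposite sides of 0, while Klf3, Klf7 and Klf16 are filled right of 0 and Klf10 left of 0 in both states.

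Among the activator-type members, Klf6 alone was called in opposite directions between the states. Klf6 (chr13:5861482-5870394, plus strand, 5 merged exons) rose at LPS 3 h, with a log2 effect of 0.56 (SE 0.05, adjusted p = 1.05e-24) by the authors' deposited table, and fell unstimulated, with -0.21 (SE 0.06, adjusted p = 0.00186). These are 1.48-fold (95% interval 1.37 to 1.59) and 0.866-fold (0.799 to 0.939) of the control level, and the intervals do not overlap. The difference, LPS 3 h minus unstimulated, was 0.77 (SE 0.08, adjusted p = 5.32e-20), and by its standardized size it ranked 100 of the 12994 genes tested. Among genes with a mean of at least 50, the 3 whose pair of effects lay nearest to Klf6 were Chd7, Cxcl2 and Bcor, at distances of 0.03 on the log2 scale over these 2 comparisons. By the authors' deposited tables the chemokine gene Cxcl2 had 0.57 (SE 0.09) at LPS 3 h and -0.18 (SE 0.12) unstimulated. Chd7 had 0.59 (SE 0.10) at LPS 3 h and -0.22 (SE 0.13) unstimulated, by the authors' deposited tables. Bcor had 0.55 (SE 0.07) at LPS 3 h and -0.18 (SE 0.09) unstimulated, by the authors' deposited tables. None of these 3 passed unstimulated. The distances are smaller than these SE, so which genes lie nearest is within error.

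Klf2 (chr8:72319033-72321656, plus strand, 3 merged exons) showed the opposite order. It had -0.01 (SE 0.13, adjusted p = 0.944) at LPS 3 h and rose unstimulated by 0.64 (SE 0.10, adjusted p = 8.02e-10), the largest change of the 10 in that state, by the authors' deposited tables. In fold terms these were 0.991 (95% interval 0.835 to 1.18) and 1.56 (1.36 to 1.78) of the control level. The difference was -0.65 (SE 0.16, adjusted p = 3.37e-04), lower at LPS 3 h, and Klf2 was the 1 member with a called difference in that direction. Klf2 is also an endothelial and lymphocyte gene, and the endothelial markers Pecam1, Cdh5 and Kdr had mean normalized counts of 79.0, 34.7 and 326, against 285 for Klf2. By the authors' deposited tables Pecam1 had -0.57 (SE 0.33) at LPS 3 h and 0.59 (SE 0.28) unstimulated, and Cdh5 had 0.03 (SE 0.24) at LPS 3 h and -0.56 (SE 0.36) unstimulated. Kdr rose by 0.44 (SE 0.11) at LPS 3 h and had -0.22 (SE 0.12) unstimulated by the authors' deposited tables. Of the 3 endothelial markers, the difference was called higher for 1 and lower for 1. Of the 6 macrophage markers, the difference was called lower for 5 and higher for 0, with a median of -0.29. Over all genes tested, 12.4% were called lower and 18.2% higher. The part of endothelial or macrophage markers in the Klf2 values was not tested.

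Klf4 (chr4:55527143-55532466, minus strand, 5 merged exons), a factor of monocyte differentiation and of stem cell reprogramming, fell in unstimulated cells and did not pass at LPS 3 h. It had -0.11 (SE 0.12, adjusted p = 0.481) at LPS 3 h and -0.54 (SE 0.13, adjusted p = 1.32e-04) unstimulated by the authors' deposited tables. The second value is 0.686-fold (95% interval 0.576 to 0.817) of the control level, the lowest of the 10. The difference of 0.43 (SE 0.18, adjusted p = 0.0486) passed narrowly and was lost, at adjusted p = 0.0531, when the adjustment ran over every gene. Klf2 and Klf4, whose control by MEF2 is textbook knowledge, had effects of opposite sign unstimulated and intervals spanning 0 at LPS 3 h. The part of MEF2 in these values was not tested.

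Klf7 (chr1:64029447-64122282, minus strand, 5 merged exons), known for axon growth and as a regulator of fat cells, rose in both states. Its log2 fold changes were 0.67 (SE 0.07, adjusted p = 1.61e-21) at LPS 3 h, the largest of the 10 there at 1.60-fold (95% interval 1.45 to 1.75), and 0.43 (SE 0.09, adjusted p = 2.47e-05) unstimulated by the authors' deposited tables. The difference, 0.24 (95% interval 0.01 to 0.47, adjusted p = 0.105), did not pass, and did at adjusted p = 0.0387 if the errors of both effects were taken to correlate by 0.3. On the opposite strand Klf7 overlaps the RNA genes Gm13748 and Gm26649, which were not analysed here, and the sources used here do not say whether reads were counted by strand.

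The CtBP-binding repressor gene Klf3 (chr5:64803388-64832901, plus strand, 8 merged exons) also rose in both states. It stood at 0.55 (SE 0.06, adjusted p = 6.17e-19) at LPS 3 h and 0.43 (SE 0.07, adjusted p = 4.08e-09) unstimulated by the authors' deposited tables, that is 1.46 times and 1.34 times the control level. The difference of 0.12 (95% interval -0.06 to 0.30, adjusted p = 0.328) did not pass. Klf3 overlaps Gm20033 on the opposite strand and C230096K16Rik on its own, with mean normalized counts of 25.1 and 9.10 against 2953 for Klf3 by the authors' deposited tables. Lgals3, the galectin-3 gene that KLF3 is known to repress in mice, had 0.16 (SE 0.06, adjusted p = 0.0170) at LPS 3 h and -0.38 (SE 0.06, adjusted p = 4.34e-08) unstimulated by the authors' deposited tables. Fam132a, also in the list of reported KLF targets, passed in neither state. It had -0.05 (SE 0.08, adjusted p = 0.601) at LPS 3 h and -0.06 (SE 0.08, adjusted p = 0.576) unstimulated by the authors' deposited tables. Both genes were named after their values were seen.

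Among the Sin3-binding members, 3 of 5 rose and 1 fell at LPS 3 h, and 1 rose and 2 fell unstimulated. Klf13 (chr7:63886351-63938915, minus strand, 4 merged exons), known in T cells as an activator of the chemokine gene Ccl5, changed in opposite directions. It rose by 0.39 (SE 0.05, adjusted p = 2.25e-13) at LPS 3 h and had -0.14 (SE 0.05, adjusted p = 0.0245) unstimulated, a fall to 0.907-fold (95% interval 0.844 to 0.975), by the authors' deposited tables. The difference was 0.53 (SE 0.07, adjusted p = 2.79e-11), at rank 355 of 12994. The unstimulated call was lost at a threshold of 0.01. Ccl5 had 0.09 (SE 0.08, adjusted p = 0.385) at LPS 3 h and fell unstimulated, with -0.43 (SE 0.09, adjusted p = 9.24e-06), by the authors' deposited tables. Klf13 overlaps E030018B13Rik and Gm27252 on the opposite strand, which were not analysed here.

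Klf9 (chr19:23141226-23168134, plus strand, 3 merged exons), which glucocorticoids and thyroid hormone are known to induce, had the largest difference of the 10 in size and a wide error. Its log2 fold change was 0.59 (SE 0.16, adjusted p = 9.98e-04) at LPS 3 h, or 1.50-fold (95% interval 1.21 to 1.88), and -0.27 (SE 0.16, adjusted p = 0.167) unstimulated by the authors' deposited tables. The difference was 0.86 (95% interval 0.42 to 1.31, adjusted p = 9.79e-04). Klf9, Klf6 and Klf13 were thus the members above the control at LPS 3 h and below it, by their estimates, unstimulated. Called in both states with opposite signs were 2 of the 10, Klf6 and Klf13, against 4.24% of the 12994 genes.

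Klf16 and Klf10 kept their sign. Klf16 (chr10:80567124-80577321, minus strand, 2 merged exons), a repressor at GC-rich promoters, rose by 0.41 (SE 0.08, adjusted p = 6.84e-07) at LPS 3 h and 0.26 (SE 0.09, adjusted p = 0.00989) unstimulated by the authors' deposited tables. Klf10 (chr15:38291463-38300706, minus strand, 10 merged exons), an early target of TGF-beta, was the 1 member called lower in both states. It fell with -0.38 (SE 0.09, adjusted p = 1.09e-04) at LPS 3 h and -0.24 (SE 0.09, adjusted p = 0.0272) unstimulated by the authors' deposited tables, 0.767-fold and 0.847-fold of the control level, and the second call was lost at a threshold of 0.01. Neither difference passed, at 0.16 (95% interval -0.07 to 0.38, adjusted p = 0.329) for Klf16 and -0.14 (-0.40 to 0.11, adjusted p = 0.436) for Klf10.

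Klf11 (chr12:24651274-24662789, plus strand, 6 merged exons), a close relative of Klf10 known for its part in insulin gene control, passed in neither state. It had 0.26 (95% interval -0.13 to 0.65, adjusted p = 0.292) at LPS 3 h and 0.04 (-0.20 to 0.27, adjusted p = 0.844) unstimulated by the authors' deposited tables. These intervals still allow a rise of up to 1.57-fold at LPS 3 h and 1.21-fold unstimulated.

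**Figure D3:**
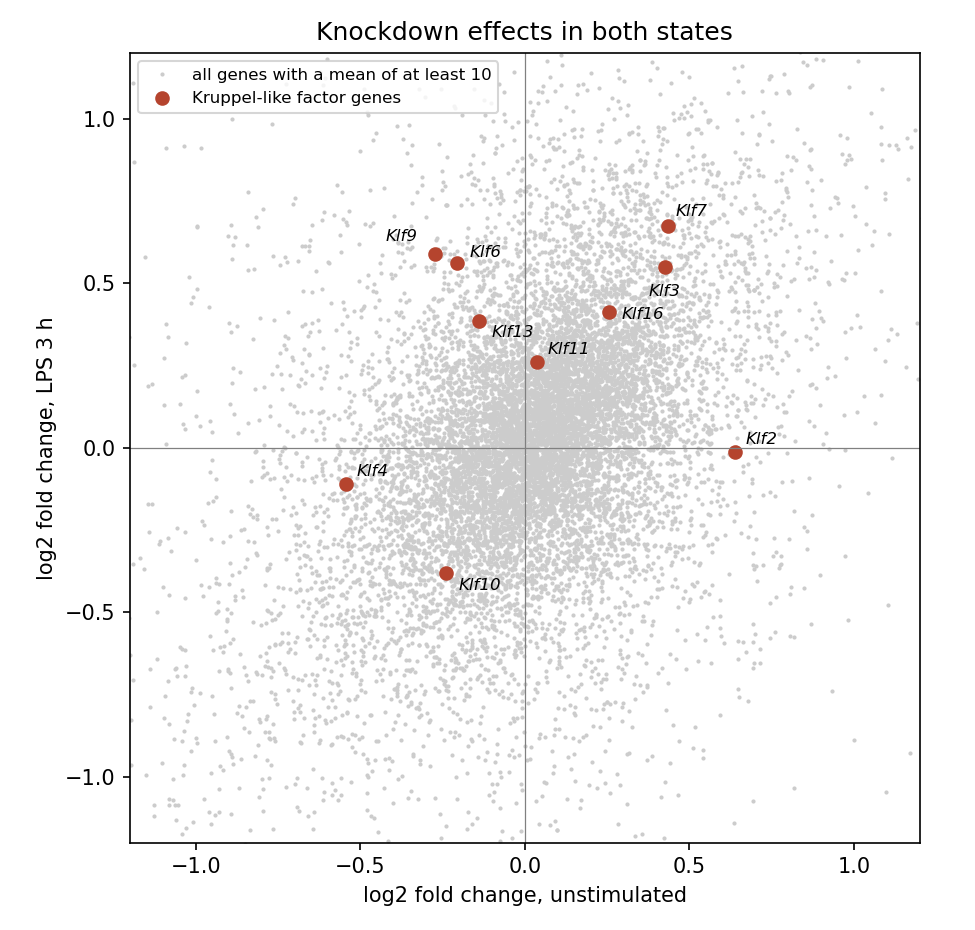
Log2 fold changes of shMOF over shCTRL unstimulated (x axis) and at LPS 3 h (y axis), from the authors' deposited tables, for genes with a mean of at least 10 (grey) and the Kruppel-like factor genes (red); 611 of 12994 genes lie outside the axes at 1.2. Klf6, Klf9 and Klf13 sit in the upper left, Klf3, Klf7, Klf11 and Klf16 in the upper right, Klf2 at the right on the zero line, and Klf4 and Klf10 in the lower left.

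The knockdown effect thus differed between the states for 5 of the 10 members, 4 with a higher value at LPS 3 h (Klf4, Klf6, Klf9 and Klf13) and 1 with a lower value (Klf2). Among all 12994 genes 30.6% passed this test, 18.2% higher and 12.4% lower. The median difference of the 10 was 0.23, beside 0.01 over all genes tested. Under the empirical null Klf6 was the 1 member still called. Of the 4 members with CCAAT among the 8 windows searched, Klf6, Klf9 and Klf13 were called higher and Klf11 was not called, with 0.22 (95% interval -0.23 to 0.68). Of the members with a window but no CCAAT, Klf4 was called higher and Klf2 lower, and Klf3 and Klf7 were not called. Over measured genes with a window, 18.7% of 3998 with CCAAT and 19.8% of 5348 without it were called higher, shares that lie close together.

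**Figure D4:**
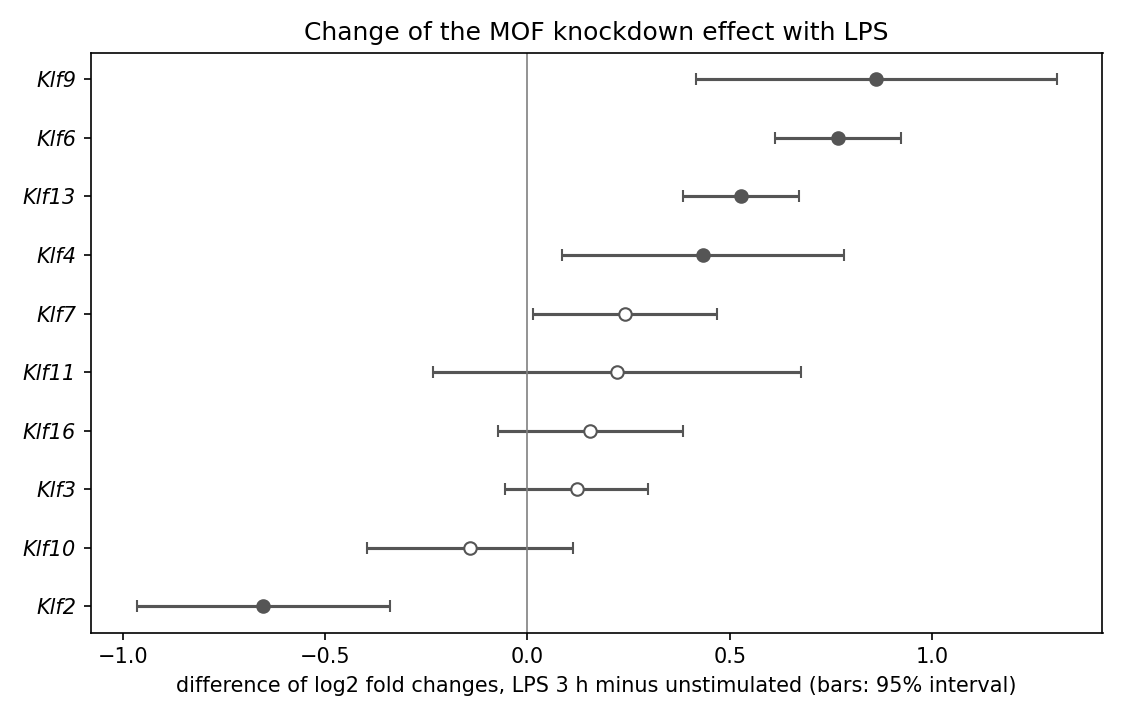
Difference of the log2 fold changes, LPS 3 h minus unstimulated, for each Kruppel-like factor gene with its 95% interval; filled points passed an adjusted p of 0.05 over 12994 genes. Klf9, Klf6, Klf13 and Klf4 are filled right of 0 and Klf2 is filled left of 0 at -0.65.

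Of the other KLF and SP genes 6 of 16 were measured, of which 5 passed at LPS 3 h, each higher, and 2 passed unstimulated, both lower. Their medians were 0.47 at LPS 3 h and -0.09 unstimulated, beside the 0.03 of all genes in each state. For this list and those below, the shares over all genes tested were 28.1% higher and 20.0% lower at LPS 3 h. Unstimulated, these shares were 21.3% higher and 17.8% lower. Klf8, a CtBP-binding relative of Klf3, rose by 0.74 (SE 0.12, adjusted p = 1.11e-09) at LPS 3 h and fell unstimulated, with -0.71 (SE 0.19, adjusted p = 6.81e-04), by the authors' deposited tables, a difference of 1.44 (SE 0.22). Klf5, at a mean of 21.1 normalized counts, rose by 1.77 (SE 0.39) at LPS 3 h and had -2.31 with an SE of 1.46 unstimulated by the authors' deposited tables. Sp1, which binds the same GC boxes, rose by 0.18 (SE 0.06) at LPS 3 h and had -0.16 (SE 0.06, adjusted p = 0.0271) unstimulated by the authors' deposited tables. Sp4 and Sp2 rose at LPS 3 h, by 0.63 (SE 0.15) and 0.31 (SE 0.07), by the authors' deposited table.

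The kinase route to MEF2 was measured in full, 7 genes, with 2 higher and 3 lower at LPS 3 h and 2 higher and 1 lower unstimulated. Map2k5, the gene of the kinase MEK5, fell in both states, with -1.11 (SE 0.07, adjusted p = 3.69e-48) at LPS 3 h and -0.64 (SE 0.06, adjusted p = 1.10e-23) unstimulated by the authors' deposited tables. Mapk7, the gene of its target ERK5, fell at LPS 3 h with -0.38 (SE 0.07) and had -0.02 (SE 0.07) unstimulated by the authors' deposited tables. The differences were -0.47 (SE 0.10, adjusted p = 1.66e-05) for Map2k5 and -0.36 (SE 0.10, adjusted p = 0.00240) for Mapk7. The MEF2 genes went both ways. Mef2a rose by 0.40 (SE 0.04) at LPS 3 h and 0.12 (SE 0.04) unstimulated, by the authors' deposited tables, and its difference of 0.28 (SE 0.06, adjusted p = 5.31e-05) had the opposite sign. Over the 7 genes the difference was thus called higher for 1 and lower for 2, beside 18.2% and 12.4% of all genes tested. Mef2c rose by 0.33 (SE 0.06) at LPS 3 h and 0.49 (SE 0.05) unstimulated, by the authors' deposited tables. Mef2d fell at LPS 3 h, with -0.18 (SE 0.06), by the authors' deposited table.

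Of 11 genes of KLF cofactors, 6 rose and 1 fell at LPS 3 h, and 5 rose and 1 fell unstimulated, with medians of 0.14 at LPS 3 h and 0.07 unstimulated. The corepressor genes Sin3a and Sin3b rose by 0.28 (SE 0.05) and 0.20 (SE 0.04) at LPS 3 h, and by 0.17 (SE 0.05) and 0.18 (SE 0.04) unstimulated, by the authors' deposited tables. The deacetylase gene Hdac1 rose in both states, Hdac2 had 0.14 (SE 0.05) at LPS 3 h and -0.25 (SE 0.06) unstimulated, and Hdac3 fell at LPS 3 h with -0.24 (SE 0.06), by the authors' deposited tables. Ubiquitin ligases that act on KLF proteins rose in 4 of 5 cases and fell in 1 at LPS 3 h, while 2 passed unstimulated, both higher. Wwp1, a ligase of KLF2 and KLF5, rose by 0.78 (SE 0.04, adjusted p = 1.70e-67) at LPS 3 h and 0.21 (SE 0.05, adjusted p = 1.01e-04) unstimulated by the authors' deposited tables, a difference of 0.58 (SE 0.07, adjusted p = 1.30e-16). Smurf1, also a ligase of KLF2, rose by 0.40 (SE 0.04) and Fbxw7, which recognises phosphorylated KLFs, by 0.34 (SE 0.07) at LPS 3 h by the authors' deposited table, while Siah1a rose by 0.26 (SE 0.09) and Btrc fell with -0.23 (SE 0.09).

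Of 19 measured genes reported elsewhere as KLF targets, 9 rose and 6 fell at LPS 3 h, and 4 rose and 6 fell unstimulated, with medians of 0.16 at LPS 3 h and -0.09 unstimulated. Their difference between the states was called higher for 9 and lower for 1, with a median of 0.22. Over all 12994 genes tested, 18.2% were called higher and 12.4% lower. The TGF-beta receptor gene Tgfbr1 fell with -0.86 (SE 0.06) at LPS 3 h and -1.28 (SE 0.06) unstimulated, by the authors' deposited tables. Its partner gene Tgfbr2 rose by 0.68 (SE 0.07) at LPS 3 h and 0.70 (SE 0.08) unstimulated, by the authors' deposited tables. The mannose receptor gene Mrc1, an alternative activation marker, rose by 0.98 (SE 0.08) at LPS 3 h and 0.34 (SE 0.09) unstimulated by the authors' deposited tables. Smad2 rose by 0.34 (SE 0.04) and Nos2, the inducible NO synthase gene, by 0.97 (SE 0.11) at LPS 3 h, while Nos2 unstimulated had -2.21 with an SE of 1.12, by the authors' deposited tables. Thrombomodulin (Thbd), a classical KLF2 target of human endothelium, fell at LPS 3 h with -0.60 (SE 0.18, adjusted p = 0.00249) and rose unstimulated by 0.18 (SE 0.07, adjusted p = 0.0303) by the authors' deposited tables. Its difference of -0.78 (SE 0.19, adjusted p = 3.95e-04) was the 1 called lower in this list. Thbd, Lgals3, Fam132a and Ccl5 were named after their values were seen.

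Immediate-early genes, whose class in many cells takes in Klf2, Klf4, Klf6 and Klf10, rose in 9 of 11 cases and fell in 2 at LPS 3 h, while 3 passed unstimulated, each higher. Their medians were 0.42 at LPS 3 h and 0.15 unstimulated. Of the KLF members in that class, Klf6 rose at LPS 3 h, Klf10 fell, and Klf2 and Klf4 did not pass. Unstimulated, Klf2 rose and Klf4, Klf6 and Klf10 fell. Zfp36 rose by 0.46 (SE 0.05), Junb by 0.42 (SE 0.05), Fosb by 1.04 (SE 0.17) and Egr2 by 0.82 (SE 0.15) at LPS 3 h, while Fos fell with -0.62 (SE 0.07), by the authors' deposited table. Glucocorticoid receptor and target genes, the company of Klf9, were mixed, 3 of 7 higher and 2 lower at LPS 3 h and 4 higher and 2 lower unstimulated. Fkbp5, a standard glucocorticoid target, had 0.32 (SE 0.09) at LPS 3 h and -1.03 (SE 0.10) unstimulated by the authors' deposited tables, a difference of 1.35 (SE 0.14, adjusted p = 1.10e-20) with the sign of that of Klf9. Tsc22d3 and Per1 went the other way, with differences of -0.61 (SE 0.12) and -0.89 (SE 0.16). The receptor gene Nr3c1 rose by 0.54 (SE 0.07) at LPS 3 h and 0.21 (SE 0.08) unstimulated, and Dusp1 fell unstimulated with -0.45 (SE 0.07), by the authors' deposited tables.

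**Figure D5:**
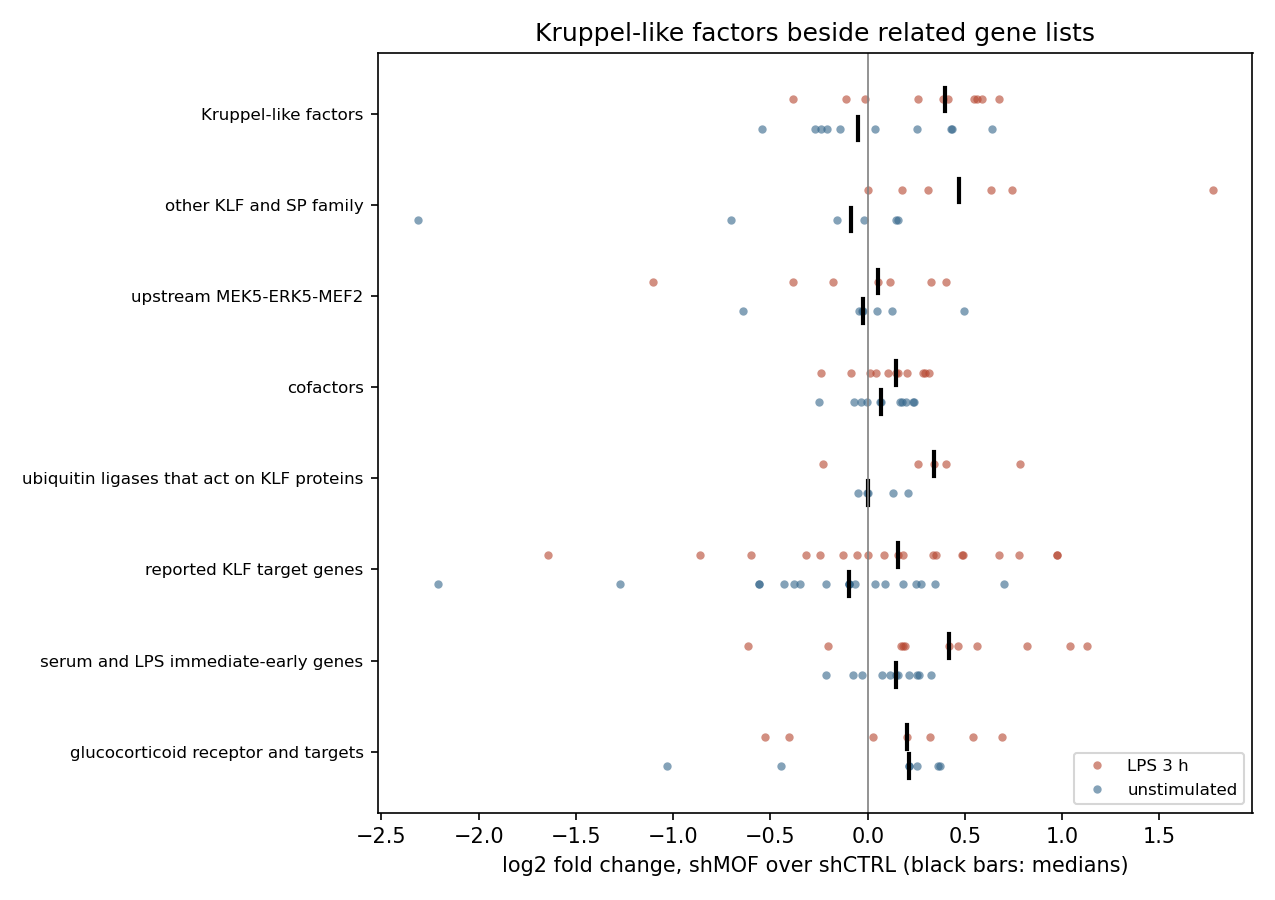
Log2 fold changes of shMOF over shCTRL at LPS 3 h (red, upper) and unstimulated (blue, lower), from the authors' deposited tables, for the Kruppel-like factors and 7 related gene lists, with 1 point per measured gene and black bars at the medians. The medians of the Kruppel-like factors, 0.40 and -0.05, and of the other KLF and SP genes, 0.47 and -0.09, lie on opposite sides of 0 in the 2 states, as do those of the MEK5-ERK5-MEF2 route, 0.05 and -0.02, and of the reported target genes, 0.16 and -0.09.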

How the data were processed

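RNA from 12 libraries was sequenced as stranded, paired-end mRNA libraries, per the labels' protocol. DESeq2 (version not given) and mm10 are named by the submitters' processing notes; the sources used here give neither aligner nor counter. The authors deposited 1 table per LPS state. Per the file headers, each holds a mean normalized count (a signal, identical in both tables), a log2 fold change of shMOF over shCTRL with its SE, a Wald statistic (a score), and a p-value with its adjusted value. These were used as deposited, with a threshold of 0.05; depth per library is unknown. Computed here were 95% intervals, and the LPS 3 h effect minus the unstimulated effect, divided by its error from both SE taken as independent. The p of this difference was normal and two-sided, with Benjamini-Hochberg over 12994 genes averaging 10 or more (scipy 1.17.1). A run on simulated data drew independent errors from the deposited SE. It could therefore not check the independence or the size of those errors. Exon lengths and coordinates are from GENCODE M21 (GRCm38, mm10), matched for 14214 of 14264 genes, and promoters from RefSeq. The members and lists were chosen with earlier results of these data known. Named from each of the 7 lists are the 5 genes with the smallest p, of 66 measured of 80 listed.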

Additional observations from a re-analysis of the deposited data

Results flagged for a closer look

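The knockdown effect differed between LPS 3 h and unstimulated cells, by the test of the difference itself, for 5 members. Of all 12994 genes tested, 30.6% passed it, 18.2% higher and 12.4% lower. The log2 difference was 0.77 for Klf6 (adjusted p = 5.32e-20), 0.53 for Klf13 (adjusted p = 2.79e-11), 0.86 for Klf9 (adjusted p = 9.79e-04), 0.43 for Klf4 (adjusted p = 0.0486) and -0.65 for Klf2 (adjusted p = 3.37e-04). Of these, Klf6 alone was still called under the empirical null. The Klf4 difference was lost, at adjusted p = 0.0531, when the adjustment ran over every gene. No cause was tested.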

How the results depend on the processing

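Of 230 alternative values of single members, 187 kept their direction and side of the threshold, 42 lost the call, 1 gained it and 0 reversed. Only centring the fold changes on their median and the empirical null alter the estimate itself. Under the other settings no direction could reverse. The 187 also take in members called neither in the main setting nor in the alternative. When the null allowed changes up to 0.25, 4 members and 2447 genes were called at LPS 3 h (main counts 7 and 6718) and 2 members and 1492 genes unstimulated (8 and 5575). A minimum log2 change of 0.5 left 4 members and 2436 genes, and 2 members and 1671 genes. The empirical null left 0 members and 494 genes, 0 members and 584 genes, and for the difference 1 member and 335 genes (main counts 5 and 3977). It divides each statistic by the central spread of all genes' statistics, 3.46 at LPS 3 h, 2.80 unstimulated and 2.25 for the difference. This spread may hold knockdown effects as well as error. Rises made up 65.8% of the calls under the empirical null at LPS 3 h, against 58.4%, 21.9% unstimulated, against 54.5%, and 80.6% for the difference, against 59.4%. The Klf4 difference was also lost at an error correlation of -0.3 (adjusted p = 0.106). No paired analysis was possible because the tables hold no values per library, and leaving out each replicate was not run for the same reason.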
